A study of Caenorhabditis elegans with 34 samples.

Results

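The day 4 and day 3 populations of a 12-day time series of Caenorhabditis elegans were compared, 6 of the 34 RNA-seq samples in the series, chosen by the day in their labels. The day 4 group held 3 whole-body pools and the day 3 group also held 3. Days were counted from the first feeding of synchronized larvae on day 0. Both groups carried spe-9(hc88), a temperature-sensitive allele that stops sperm from fertilizing oocytes at the restrictive temperature, and both were grown at 25°C on E. coli OP50. Larvae were synchronized by hypochlorite treatment and spread over 12 plates, 1 plate was harvested each day, and the whole course was repeated 3 times. The animals are thus a model of adults that cannot fertilize their own oocytes, not of fertile ones. Each sample was a pool of whole animals, so fewer cells of a type and less RNA per cell cannot be told apart.

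C. elegans hermaphrodites make sperm late in larval life and then switch to oocytes, which are filled with yolk proteins secreted by the intestine. The cuticle is built of collagens, most of them encoded by the large col family and secreted by the hypodermis. Propionate, a product of the breakdown of some amino acids and fats, is cleared by a route that needs vitamin B12 or by a shunt that does not, and vitamin B12 also serves the methionine cycle, which makes the methyl donor S-adenosylmethionine.

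From day 3 to day 4, transcripts of 11 cuticle collagens, of 3 of 5 genes of the propionate shunt and of the S-adenosylmethionine synthetase gene sams-1 fell. Transcripts of 11 major sperm protein genes, of 2 small heat shock proteins, of 2 insulin-like peptides and of the lysosomal lipase gene lipl-1 rose. These statements rest on an adjusted p under 0.05 in a fit that did not pair libraries by replicate number. At the threshold of 0.01 set for the comparison, edgeR's quasi-likelihood test with Benjamini-Hochberg adjustment called 0 of 13865 detected genes, although 1615 had an unadjusted p under 0.05, of which 1259 were higher and 356 lower on day 4. DESeq2's Wald test called 328 genes at 0.01. The threshold of 0.05 was taken for the description after these counts had been seen. At 0.05, edgeR called 108 genes, 77 higher on day 4 (0.555% of detected genes) and 31 lower on day 4 (0.224%). The median log2 fold change over all detected genes was 0.02, and 7299 of them had a positive value.

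Total counts per library were between 20217457 and 27126991. Day 4 replicate 2 stood apart from the other 5 libraries. Its deviations from the mean of the 6 libraries had a Spearman correlation across genes with transcript length of -0.57, the most negative of the 6, against 0.49 in day 3 replicate 1 at the other end. Across genes, which are not independent replicates, length and log2 fold change had a Spearman correlation of -0.32 with all 6 libraries and of -0.01 without day 4 replicate 2. The biological coefficient of variation was 26.5% with all libraries and 20.2% without it. Its part in single results was checked by leaving it out. Of the 108 genes, 101 then kept an adjusted p under 0.05 (71 higher and 30 lower on day 4). All 108 kept their direction, which says little because the days did not overlap in any of them. In total 114 genes (0.822%) were called higher and 74 (0.534%) lower on day 4 without that library. At 0.01, 3 were then called higher and 12 lower. The calls hung more on other libraries. Only 33 of the 108 remained at 0.05 without day 4 replicate 1, and 3 without day 4 replicate 3. Without day 3 replicate 3, 68 remained, and 0 without day 3 replicate 1 or without day 3 replicate 2. All 108 kept their direction in each case, which days without overlap nearly fix in advance. In a fit of all samples of days 2 to 12, 80 of the 108 kept their call. With a block for the replicate number, only 3 of the 108 kept their call at 0.05. With that block and a correction for transcript length, 102 kept it. The labels number the 3 pools of a day as replicates and do not say whether the starting cultures were separate. The p-values therefore measure the spread between these pools.

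**Figure D1:**
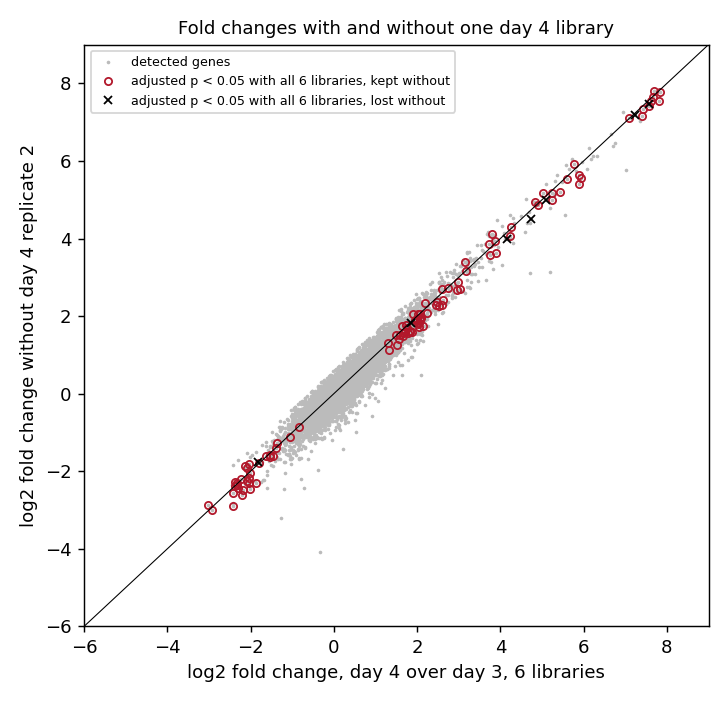
Log2 fold change of each detected gene, day 4 over day 3, with all 6 libraries (x axis) and without day 4 replicate 2 (y axis). The 108 genes with adjusted p under 0.05 are marked, 101 that kept the call as circles and 7 that lost it as crosses, and all lie near the line of equal values.

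Cuticle collagens held the largest group of genes that were lower on day 4. Of 85 detected col genes, 11 fell and 1 rose, and 39 had an unadjusted p under 0.05. DESeq2 called 19 lower and 4 higher at 0.05. The log2 fold changes of the 85 ran from -3.03 to 3.04 with a median of 0.01, 43 of them positive and 42 negative. The 11 that fell were col-143, col-101, col-95, col-140, col-119, col-178, col-179, col-160, col-181, col-184 and col-155. Summed over 156 col genes, the level was 3082, 2854 and 2180 CPM (counts per 1000000, scaled by TMM) in the 3 day 4 libraries, against 9975, 11504 and 6445 CPM in the 3 day 3 libraries. The highest day 4 sum was below the lowest day 3 sum, and the mean of day 4 was 0.291 times that of day 3, or 0.283 times without day 4 replicate 2.

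The gene col-101 (WBGene00000675, WBcel235 chromosome IV, 325435 to 327020, minus strand) had 183, 162 and 104.2 CPM on day 4 and 1246, 1456 and 726 CPM on day 3. Its libraries did not overlap between days, and day 3 replicate 3 was the lowest of its day. It fell by 2.93 on the log2 scale (SE 0.32, edgeR adjusted p = 0.017; adjusted p = 0.017 without day 4 replicate 2). The gene col-143 had 133, 76.5 and 83.3 CPM on day 4 and 939, 1055 and 395 CPM on day 3, and fell by 3.03 (SE 0.40, edgeR adjusted p = 0.026). The same order held in col-95, with 221, 141 and 136 CPM on day 4 against 961, 1115 and 506 CPM on day 3. Each of the other 8 that fell also had day 3 values above every day 4 value. The days did not overlap in any of the 108 called genes, nor in 2500 of the 13865 detected genes. In the opposite direction, col-129 had 7.66, 20.02 and 14.4 CPM on day 4 against 1.74, 1.86 and 1.49 CPM on day 3, and rose by 3.04 (SE 0.38, edgeR adjusted p = 0.026). Without day 4 replicate 2 all 12 kept an adjusted p under 0.05, and 14 col genes were then called lower and 2 higher. In the fit over days 2 to 12, only col-95 of the 12 stayed under 0.05 (adjusted p = 0.022), with values between 0.063 and 0.256 for the other 11. Markers of the hypodermis, the tissue that secretes cuticle, had a summed level of 191 to 244 CPM on day 4 and 289 to 338 CPM on day 3. These sums did not overlap, and the ratio of the means was 0.688. Of 9 detected markers edgeR called 0 (3 at an unadjusted p under 0.05, and 1 by DESeq2). Some genes on the marker list are themselves cuticle collagens, so the list is not separate from the collagens. The part of the hypodermis in the collagen values was not tested.

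**Figure D2:**
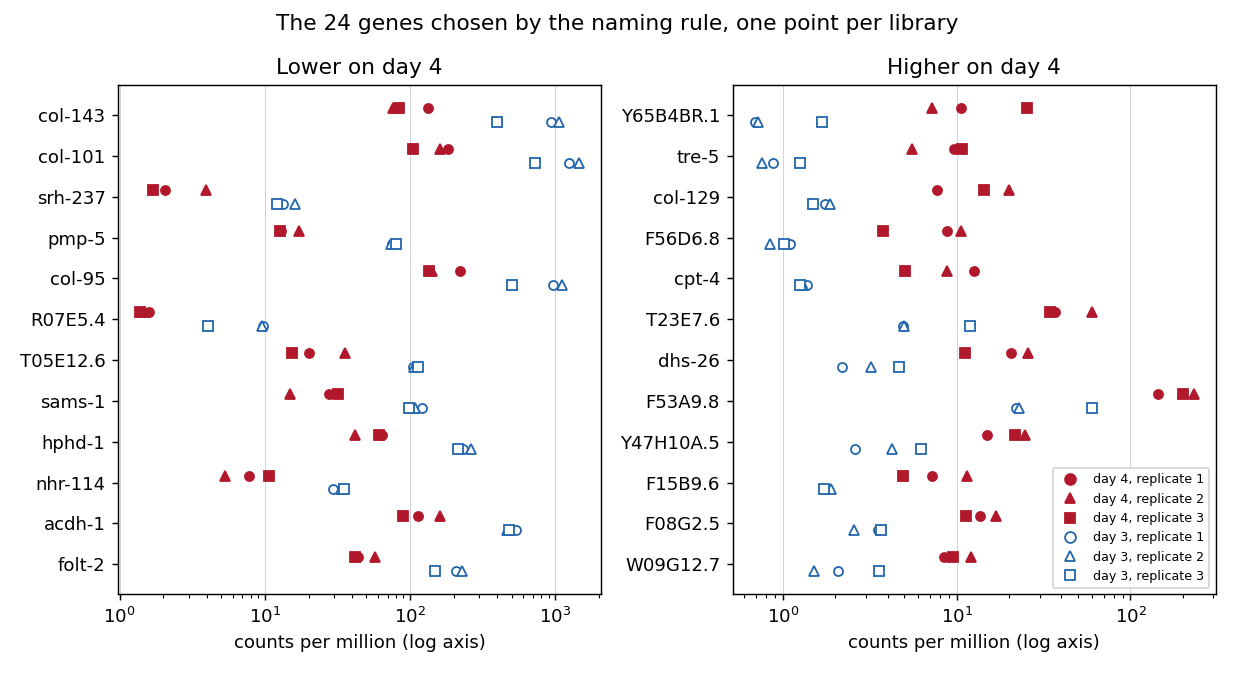
Level in CPM (log axis) of the 12 genes with the largest falls (left) and the 12 with the largest rises (right) that met the naming rule, 1 point per library, with day 4 filled and above day 3 open. The rule admits only genes whose days do not overlap, so the separation of the days is not a result. In col-143, col-101 and col-95 day 3 replicate 3 lies nearest to day 4.

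Of 5 genes of the propionate shunt, 3 fell on day 4. The shunt list was drawn up after its first members had been seen among the calls, so its count is a description. The first enzyme of the shunt, the acyl-CoA dehydrogenase gene acdh-1 (WBGene00016943, chromosome I, 6497436 to 6499560, plus strand), had 113, 160 and 88.95 CPM on day 4 and 538, 469 and 480 CPM on day 3. The days did not overlap, and the highest day 4 value was that of replicate 2. The transcript fell by 2.04 on the log2 scale (SE 0.23, edgeR adjusted p = 0.018), and without day 4 replicate 2 its adjusted p was 0.002. In the fit over days 2 to 12 it missed the threshold (adjusted p = 0.256). The next enzyme, the enoyl-CoA hydratase gene ech-6, had 201, 205 and 194 CPM on day 4 and 340, 395 and 338 CPM on day 3, and fell by 0.84 (SE 0.15, edgeR adjusted p = 0.049). The hydrolase gene hach-1 had 140, 118 and 122 CPM on day 4 against 246, 287 and 204 CPM on day 3, and just missed the threshold (edgeR adjusted p = 0.055; 0.045 without day 4 replicate 2).

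The transhydrogenase gene hphd-1 (WBGene00012608, chromosome II, 12994354 to 12996571, minus strand) had 64.2, 41.5 and 61.4 CPM on day 4 and 233, 263 and 212 CPM on day 3, and fell by 2.09 (SE 0.21, edgeR adjusted p = 0.017). The last enzyme gene, alh-8, had 508, 457 and 670 CPM on day 4 and 659, 790 and 545 CPM on day 3, with overlapping days (adjusted p = 0.690). Without day 4 replicate 2, 4 of the 5 were called lower. The median log2 fold change of the 5 was -0.96. Of the 4 genes of the B12-dependent route, pcca-1, pccb-1, mce-1 and mmcm-1, edgeR called 0 (0 at an unadjusted p under 0.05, and 0 by DESeq2), with a median of -0.25, or -0.05 without day 4 replicate 2.

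Of 18 genes of the methionine cycle and of phosphocholine synthesis, 2 fell and 0 rose, with a median of -0.11, which was 0.06 when libraries were scaled by library size alone. The S-adenosylmethionine synthetase gene sams-1 (WBGene00008205, chromosome X, 11965962 to 11969893, plus strand) had 27.8, 14.9 and 32.02 CPM on day 4 and 121, 109 and 98.1 CPM on day 3. It fell by 2.13 (SE 0.28, edgeR adjusted p = 0.026). Its paralogs sams-3 and sams-4, whose near-identical stretches can share reads, were not called, with log2 fold changes of -0.40 and -0.29. The phosphoethanolamine methyltransferase gene pmt-2, which uses S-adenosylmethionine to make phosphocholine, had 94.9, 72.1 and 82.2 CPM on day 4 and 222, 214 and 207 CPM on day 3, and fell by 1.37 (SE 0.16, edgeR adjusted p = 0.019). The gene of the enzyme that precedes it in that route, pmt-1, had 214, 274 and 303 CPM on day 4 and 185, 203 and 317 CPM on day 3, so its days overlapped (adjusted p = 0.830). The methionine synthase gene metr-1 had 145, 60.1 and 127 CPM on day 4 and 220, 180 and 174 CPM on day 3. Its days did not overlap, but it missed the threshold (adjusted p = 0.351), and day 4 replicate 2 was its lowest library.

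The genes described next were picked from the calls and belong to no single list. The peroxisomal-type ABC transporter gene pmp-5 had the smallest adjusted p of all genes, 0.012 by edgeR, with 12.9, 17.3 and 12.8 CPM on day 4 and 75.7, 73.4 and 79.8 CPM on day 3. It fell by 2.41 (SE 0.19). The nuclear hormone receptor gene nhr-114 had 7.75, 5.36 and 10.7 CPM on day 4 and 29.5, 33.2 and 35.4 CPM on day 3. It was the only 1 of 182 detected nuclear hormone receptor genes called in either direction. That is near the share over all detected genes, 108 of 13865. The folate transporter family gene folt-2 had 43.6, 57.2 and 41.6 CPM on day 4 and 207, 227 and 148 CPM on day 3. The methionine sulfoxide reductase gene msra-1 had 18.4, 34.1 and 15.7 CPM on day 4 and 73.02, 85.0 and 92.7 CPM on day 3. All of these kept their call without day 4 replicate 2, and of the 4, folt-2 missed the threshold in the fit over days 2 to 12 (adjusted p = 0.272). The bZIP gene zip-3, the isocitrate dehydrogenase subunit gene idhg-2, the acyl-CoA oxidase gene acox-1.3 and the chemoreceptor gene srh-237 also fell, with log2 fold changes of -1.06, -1.45, -1.40 and -2.43. In the fit over days 2 to 12, acox-1.3 (adjusted p = 0.192) and srh-237 (adjusted p = 0.096) missed the threshold. The genes T05E12.6 and R07E5.4, for which no role is given here, completed the 12 falls named by size, and T05E12.6 missed the threshold in that fit (adjusted p = 0.181).

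**Figure D3:**
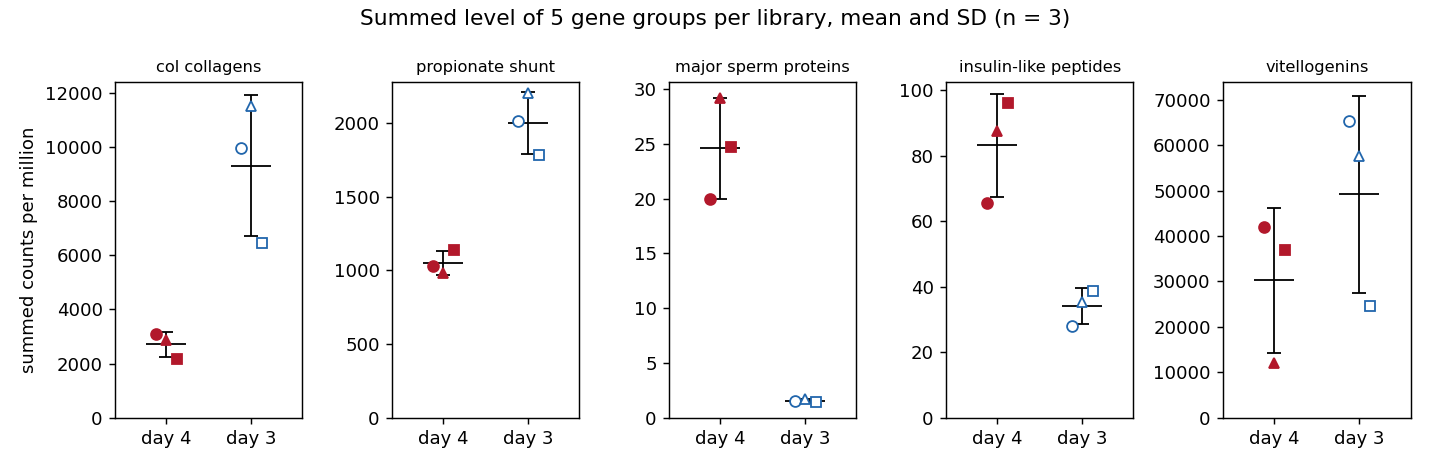
Summed CPM of 5 gene groups in each library, with day 4 filled on the left and day 3 open on the right of each panel. The short lines give the mean and the bars the SD (n = 3). The days do not overlap for col collagens, the propionate shunt, major sperm proteins and insulin-like peptides, and overlap for vitellogenins.

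Transcripts of major sperm proteins, the abundant cytoskeletal and signalling proteins of nematode sperm, were near 0 on day 3 and present at a low level on day 4. Over 31 msp genes the summed counts were 425, 725 and 625 in the day 4 libraries and 33, 41 and 29 in the day 3 libraries. In CPM the sums were 19.97, 29.2 and 24.7 on day 4 against 1.51, 1.73 and 1.40 on day 3, and the mean of day 4 was 15.9 times that of day 3, or 14.4 times without day 4 replicate 2. All 3 day 4 libraries lay far above all day 3 libraries. Of 27 detected msp genes 11 rose, 0 fell and all 27 had positive fold changes. Without day 4 replicate 2, 9 were called higher. In the fit over days 2 to 12, msp-10, msp-77 and msp-53 missed the threshold (edgeR adjusted p = 0.083, 0.068 and 0.068). The median log2 fold change was 4.63, and 4.19 with the 8 genes that had no count on day 3 set to the bound that 3 counts over the day allow. The genes msp-81 (23, 32 and 34 counts on day 4) and msp-40 (20, 40 and 28 counts on day 4) had 0 counts in every day 3 library, so msp-81 was at least 27.5-fold higher and msp-40 at least 27.2-fold higher on day 4. Because msp genes are near-identical copies, reads can be split between them and single members are uncertain. Their sum is not affected by a split among the 31 genes. It would be affected by reads that were dropped or assigned elsewhere, which was not tested. Bounds and counts here cover counting error only.

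On the whole list of sperm genes, msp included, 12 of 53 detected members rose, 11 of them msp genes and the other sss-1. In the fit over days 2 to 12, sss-1 missed the threshold (edgeR adjusted p = 0.118). Further sperm genes were picked from the calls. The sperm-specific family genes ssq-4 and ssq-2 had 1.74, 3.63 and 3.08 CPM and 1.41, 1.37 and 2.25 CPM on day 4, against no more than 0.0964 and 0.193 CPM in any day 3 library. The gene ssq-3 had 15, 29 and 22 counts on day 4 and none on day 3. These 3 genes also rose (edgeR adjusted p = 0.017, 0.026 and 0.034 for ssq-4, ssq-2 and ssq-3), and ssq-2 missed the threshold in the fit over days 2 to 12 (adjusted p = 0.072). A list of 9 sperm markers holds msp-142 and msp-3, so it is not separate from the msp genes. Of the 9, 7 were detected, 6 of them had positive fold changes and edgeR called 0 (5 at an unadjusted p under 0.05, and 2 by DESeq2). The sum of the list was 19.3 to 28.5 CPM on day 4 and 25.1 to 26.9 CPM on day 3, and the transcription factor gene spe-44, with 541, 395 and 564 counts on day 4 and 552, 627 and 508 counts on day 3, made up nearly all of it. The sperm phosphatase gene gsp-4 had 10, 10 and 16 counts on day 4 and 0, 0 and 2 on day 3. Zygotic genes, which mark embryos, gave no comparable shift, since 1 of 12 detected members, the embryonic homeobox gene ceh-51, was called higher and the median was 0.11.

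Other days give the setting of these levels. On the scale of all 34 libraries, the msp sum averaged 1.51 ± 1.06 CPM on day 1, 48.0 ± 13.03 CPM on day 2, 1.78 ± 0.21 on day 3, 28.6 ± 6.50 on day 4 and 74.0 ± 42.3 on day 5 (SD, n = 3 each). Day 3 was thus a low point between days 2 and 4. The col sum averaged 42131 ± 14698 CPM on day 2, 10729 ± 3067 on day 3, 3137 ± 617 on day 4 and 5518 ± 5178 on day 5 (SD, n = 3 each), so the level of day 4 lay within the spread of day 5. The 5 propionate shunt genes averaged 3948 ± 525 CPM on day 2, 2303 ± 265 on day 3, 1209 ± 49.4 on day 4 and 1139 ± 443 on day 5. The step from day 3 to day 4 was the last in which their sum moved beyond the spread between pools over these 4 days.

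**Figure D4:**
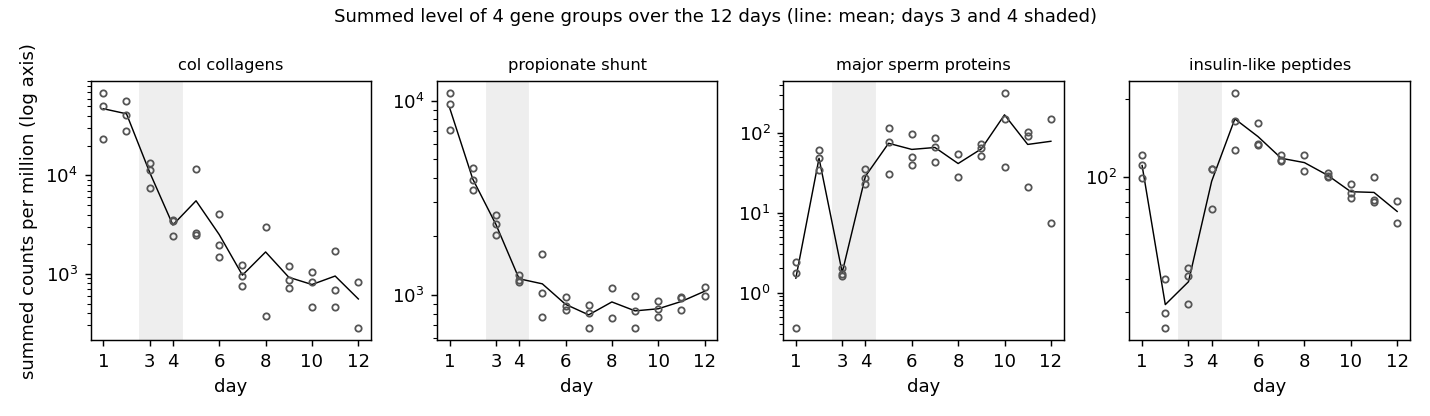
Summed CPM (log axis) of 4 gene groups in every library of days 1 to 12, with the line through the daily means and days 3 and 4 shaded. Major sperm proteins dip on day 3 between higher values on days 2 and 4. Col collagens and the propionate shunt decline to day 4 and are lower still on day 7. Insulin-like peptides are lower on days 2 and 3 than on days 1, 4 and 5.

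Among heat-inducible chaperones, 2 small heat shock protein genes rose. The gene hsp-16.2 (WBGene00002016, chromosome V, 1804334 to 1804957, minus strand), which encodes a chaperone induced by heat and other stresses, had 4.51, 7.90 and 5.96 CPM on day 4 and 1.65, 1.77 and 1.73 CPM on day 3. It rose by 1.83 on the log2 scale (SE 0.29, edgeR adjusted p = 0.034). Its neighbour on the other strand, hsp-16.41 (chromosome V, 1805178 to 1805875, plus strand), had 4.09, 7.57 and 4.86 CPM on day 4 and 1.51, 1.39 and 1.59 CPM on day 3 and rose by 1.88 (SE 0.31, edgeR adjusted p = 0.041). Both were highest in day 4 replicate 2 and kept their call without it. They were the only 2 of 13 detected genes on this list to be called, beside 0.555% of all detected genes called higher. Without day 4 replicate 2, 4 of the 13 were called higher. Their median was 0.70 with all libraries and 0.37 without that library. The gene hsp-70 missed the threshold, with 1.597, 1.73 and 1.66 CPM on day 4 and 0.459, 0.0844 and 0.337 CPM on day 3 (adjusted p = 0.073).

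Insulin-like peptide genes, which encode secreted ligands of the receptor DAF-2, had the highest median of the lists after that of sperm genes. Of 28 detected members, 2 rose, 0 fell and 24 had positive values, with a median of 1.19, or 1.06 without day 4 replicate 2. Over all detected genes, 0.555% were called higher. Summed over 39 genes the level was 65.6, 87.6 and 96.1 CPM on day 4 and 28.1, 35.4 and 38.6 CPM on day 3. No day 3 library reached a day 4 library. The gene ins-4 (chromosome II, 5996366 to 5997008, plus strand) had 5.31, 5.04 and 7.15 CPM on day 4 and 0.688, 0.633 and 1.59 CPM on day 3, and rose by 2.59 (SE 0.40, edgeR adjusted p = 0.034). The gene ins-22 had 2.96, 2.74 and 2.25 CPM on day 4 and 0.734, 0.549 and 0.915 CPM on day 3, and rose by 1.85 (SE 0.32, edgeR adjusted p = 0.047), but lost the call without day 4 replicate 2 (adjusted p = 0.055). The gene ins-7 missed it, with 19.2, 33.5 and 31.2 CPM on day 4 and 3.85, 4.05 and 10.9 CPM on day 3 (adjusted p = 0.074). Downstream of the ligands, edgeR called 0 of 12 genes of the insulin receptor pathway (0 at an unadjusted p under 0.05, and 0 by DESeq2), with a median of -0.19, or 0.00 without day 4 replicate 2.

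Other secreted neuropeptides had positive values that rarely passed the test. Of 69 detected neuropeptide-like protein genes, 62 had positive values and 1, nlp-48, rose (1.88, 2.34 and 2.29 CPM on day 4 against 0.550, 0.549 and 0.578 CPM on day 3). Over all detected genes 0.555% were called higher, so 1 call among 69 says little. Of 30 FMRFamide-like peptide genes, 29 had positive values with a median of 0.61, and edgeR called 0 of them (10 at an unadjusted p under 0.05, and 0 by DESeq2). Both lists stood above the all-gene median without day 4 replicate 2 as well, at 0.36 and 0.46. Neuronal markers had a summed level of 322 to 486 CPM on day 4 and 386 to 494 CPM on day 3, so the days overlapped.

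The rises also held the lipase gene lipl-1, the ferritin gene ftn-1 and 3 infection response genes. The lysosomal lipase gene lipl-1 (chromosome V, 12919986 to 12921692, plus strand), which breaks down stored fat, had 33.6, 44.1 and 48.7 CPM on day 4 and 7.75, 7.68 and 14.6 CPM on day 3. It rose by 2.07 (SE 0.30, edgeR adjusted p = 0.028). Its relative lipl-2 had 23.4, 33.6 and 25.0 CPM on day 4 and 4.95, 5.44 and 11.7 CPM on day 3 and missed the threshold (adjusted p = 0.059). The ferritin gene ftn-1, for an iron storage protein, had 27.9, 32.6 and 26.2 CPM on day 4 and 6.10, 6.63 and 8.86 CPM on day 3, and rose by 2.01 (SE 0.22, edgeR adjusted p = 0.017). The acid sphingomyelinase gene asm-3 had 50.2, 50.1 and 55.3 CPM on day 4 and 18.99, 17.2 and 18.98 CPM on day 3. It was 2.82-fold higher on day 4 (log2 SE 0.16, edgeR adjusted p = 0.017). The hexosaminidase gene hex-1 had 106, 115 and 130 CPM on day 4 and 42.7, 42.6 and 57.6 CPM on day 3 (log2 fold change 1.30), and the endoribonuclease gene endu-2 had 107, 116 and 192 CPM on day 4 and 38.02, 38.5 and 57.0 CPM on day 3 (log2 fold change 1.63). Of 70 detected infection response genes 3 rose and 0 fell, namely asm-3, the antibacterial factor gene abf-2 (log2 fold change 1.52) and the fungus-induced protein family gene fipr-24 (log2 fold change 2.08). Over all detected genes, 0.555% were called higher. The infection response list's median of 0.60 with all libraries was 0.15 without day 4 replicate 2.

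The largest rises by the naming rule belonged to no single list. The gene Y65B4BR.1 had 10.6, 7.17 and 25.2 CPM on day 4 and 0.688, 0.717 and 1.69 CPM on day 3. The trehalase gene tre-5 had 9.58, 5.56 and 10.7 CPM on day 4 and 0.871, 0.760 and 1.25 CPM on day 3, and rose by 3.16 (SE 0.36, edgeR adjusted p = 0.018). The carnitine palmitoyltransferase family gene cpt-4 had 12.5, 8.78 and 5.01 CPM on day 4 and 1.38, 1.31 and 1.25 CPM on day 3. The gene F53A9.8 (chromosome X, 8718641 to 8718904, minus strand) had 144, 231 and 199 CPM on day 4 and 22.02, 22.9 and 60.3 CPM on day 3, and rose by 2.45 (SE 0.41, edgeR adjusted p = 0.041). Its day 3 replicate 3 stood above both other day 3 libraries, yet below every day 4 library. The short-chain dehydrogenase gene dhs-26 rose by 2.52 and the genes F56D6.8, T23E7.6, Y47H10A.5, F15B9.6, F08G2.5 and W09G12.7 rose by 2.08 to 2.97. All 12 kept an adjusted p under 0.05 without day 4 replicate 2. In the fit over days 2 to 12, col-129 and F56D6.8 missed the threshold (edgeR adjusted p = 0.090 and 0.089). In detoxification families, 1 of 54 cytochrome P450 genes (cyp-34A9, log2 fold change 1.78) and 1 of 93 UGT and GST genes (ugt-18) rose. Of 93 C-type lectin genes 1, clec-60, rose. Over all detected genes, 77 of 13865 (0.555%) rose.

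Yolk and housekeeping groups held no call. Over all 13865 detected genes edgeR called 108, and 1615 had an unadjusted p under 0.05, so 0 calls in lists of this size says little. The 6 vitellogenin genes, for yolk proteins, all had negative fold changes, from -1.63 in vit-1 to -0.42 in vit-2, and edgeR called 0 at 0.05 (3 had an unadjusted p under 0.05, and DESeq2 called 1). Their sum was 41869, 12009 and 36825 CPM on day 4 and 65398, 57583 and 24492 CPM on day 3. The days overlapped because day 3 replicate 3 lay below day 4 replicates 1 and 3, and day 4 replicate 2 was the lowest of the 6 libraries. The median of the 6 genes was -0.95 with all libraries and -0.57 without day 4 replicate 2. Cytosolic ribosomal proteins (81 detected genes, median -0.26), the proteasome (33 genes, median -0.25), nuclear genes of the respiratory chain (39 genes, median -0.26), translation factors (40 genes, median -0.21) and the ER unfolded protein response (20 genes, median -0.10) had 0 genes called by edgeR. In the same order, 3, 1, 3, 2 and 0 of their genes had an unadjusted p under 0.05, and DESeq2 called 0. In the proteasome all 33 genes had negative values, also without day 4 replicate 2, and 25 of 33 did when scaled by library size alone. All 20 genes of the unfolded protein response were negative with all libraries, whereas 11 of them were positive without day 4 replicate 2 and 12 when scaled by library size alone. Of 29 genes of the muscle filaments edgeR called 0 (9 at an unadjusted p under 0.05, and 5 by DESeq2), and without day 4 replicate 2 it called 5 lower. Body wall muscle markers had a summed level of 320 to 331 CPM on day 4 and 423 to 661 CPM on day 3, with no overlap and a ratio of the means of 0.582. Of these 9 markers edgeR called 0 (5 at an unadjusted p under 0.05, and 2 by DESeq2), and 2 were called lower without day 4 replicate 2. The part of muscle in other results was not tested.

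**Figure D5:**
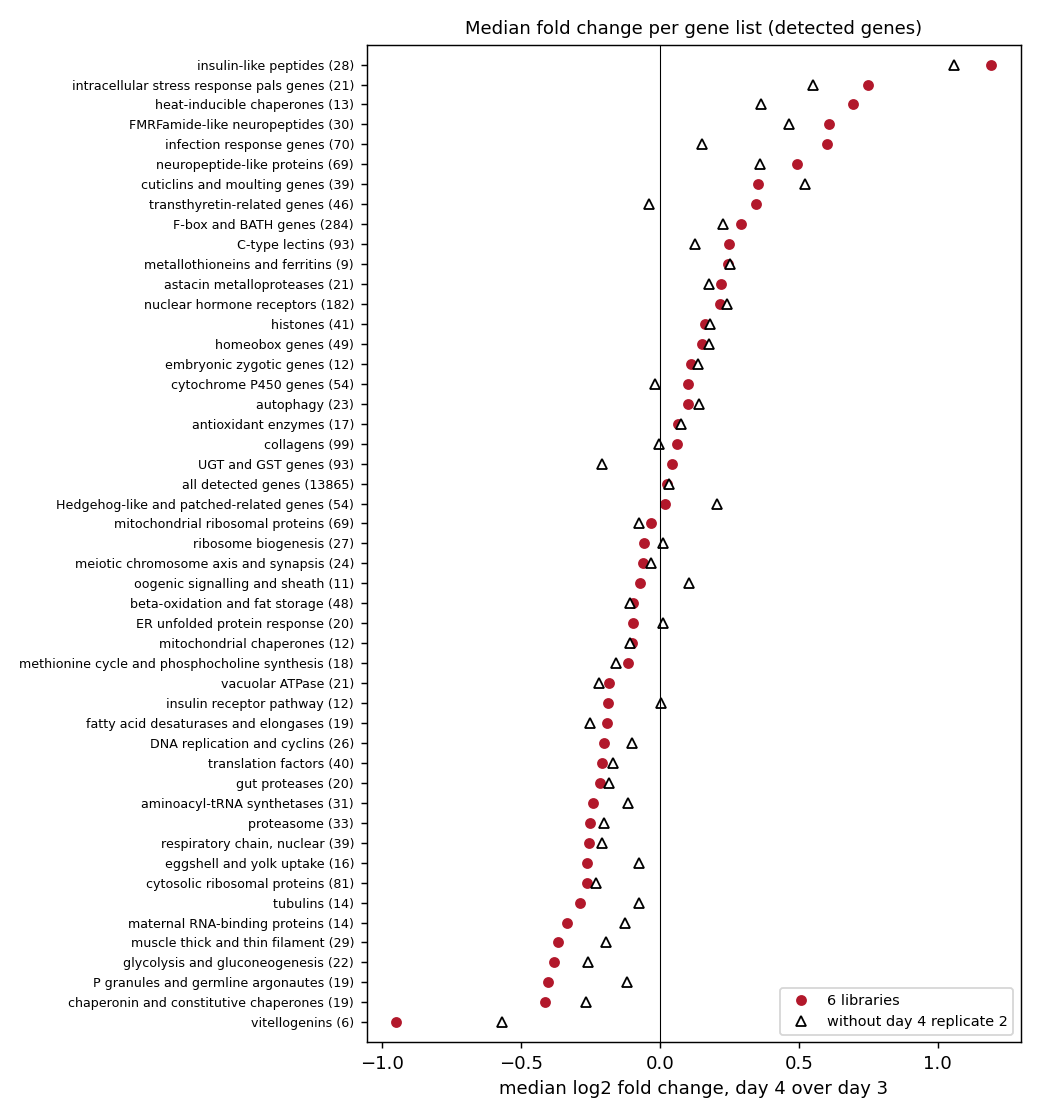
Median log2 fold change, day 4 over day 3, of each gene list, with the number of detected genes in parentheses, for all 6 libraries (filled circles) and without day 4 replicate 2 (open triangles). The sperm list, whose median lies beyond the axis, and the propionate lists are not drawn. Of the lists drawn, insulin-like peptides have the highest median (1.19) and vitellogenins the lowest (-0.95), and transthyretin-related genes and infection response genes move toward 0 without that library.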

How the data were processed

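RNA from whole-body pools was enriched for poly(A) transcripts. The authors deposited raw counts, whole numbers of reads assigned per gene, without normalization. The submitters' processing notes name STAR 2.7.3a, featureCounts and WBcel235. The annotation and the handling of strand are not given in the sources used here, so reads of overlapping genes cannot be told apart. A gene counted as detected when 75% of the 31 samples from days 2 to 12 held 5 or more counts (13865 of 20222). The transgene entry was left out. Gene positions and lengths were taken from Ensembl release 115 on WBcel235. The 3 libraries of day 4 and the 3 of day 3 were compared with the quasi-likelihood test of edgeR 4.0.16 (R 4.3.3) after TMM scaling, with no block for the replicate number, and p-values of detected genes were adjusted after Benjamini and Hochberg. The SE of a fold change was derived from the F statistic. Groups were taken from the day in the labels. Alternatives included DESeq2 1.42.0, other filters and normalizations, a correction for transcript length and leaving out each library. The script was tested on simulated data. Named genes were the 12 largest rises and the 12 largest falls with at least 100 mean counts and no overlap between days, at most 3 per name stem, and up to 4 members of each list described. The rule was applied at an adjusted p under 0.05 because none passed 0.01. Further genes were named after their values were seen (relatives of called genes and other called genes). Members and lists were chosen with earlier results of these data known.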

Additional observations from a re-analysis of the deposited data

Results flagged for a closer look

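Outside the genes tested, the entry for a transgene in the count table had counts of 16, 13 and 8 in the day 4 libraries and 33, 34 and 9 in the day 3 libraries, at most 34, all above the 3 counts that a count of 0 allows. The entry was used in no comparison.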

How the results depend on the processing

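At an adjusted p under 0.01 the 0 calls stayed 0 with DESeq2 size factors, under a minimum of 10 counts in every sample, under a minimum of 5 counts in 3 samples and with the replicate block. They were 54 (38 higher and 16 lower on day 4) when scaled by library size alone, 328 (239 and 89) by DESeq2's Wald test, 67 (43 and 24) with no filter on low counts, 206 (195 and 11) with all samples of days 2 to 12, 33 (12 and 21) with the length trend removed and 45 (21 and 24) with the length trend removed and the replicate block. The threshold of 0.05 gave 108 (77 and 31). Leaving out 1 library gave 0 to 15 calls (0 to 3 higher and 0 to 12 lower). At 0.05 combined with each other setting, combinations added after seeing the data, the numbers higher and lower were 220 and 32 by library size alone, 374 and 147 by DESeq2, 170 and 54 with no filter, 18 and 20 with at least 10 counts in every sample, 559 and 89 with all days, 194 and 100 with the length trend removed and 181 and 92 with that and the block. Leaving out 1 library gave 0 to 114 higher and 0 to 74 lower. The replicate block left 1 higher and 2 lower. Of the 108 genes, 3 kept their call with the block, and 102 did with the block and the length trend removed. Samples of equal number had correlations of deviations of 0.392, -0.107 and -0.004 for replicates 1, 2 and 3, and not every sample correlated best with its own number. These few correlations, taken with the length trend left in, cannot show whether equal numbers share a course. The median log2 fold change of detected genes, 0.02, was 0.212 by library size alone, a shift that raises all values alike, -0.016 with DESeq2 size factors and -0.016 by DESeq2, -0.0008018 with the length trend removed, -0.009006 with that and the block, and -0.006462 to 0.036 without 1 library. Causes were not tested. All 108 genes kept their direction under each alternative that tested them (74 with at least 10 counts in every sample). Since the days did not overlap in any of them, this could hardly have come out otherwise. Of the 77 genes called higher on day 4, 28 had a mean of under 20 counts, where counting error is large.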
